A study of Mus musculus with 31 samples.

Results

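The report concerns 9 genes of B lymphocytes in whole mouse lung, namely Cd79a, Cd79b, Ms4a1, Cd22, Cr2, Fcer2a, Bank1, Blk and Pax5, out of 19938 genes that the arrays name. The members were taken from a list of names chosen with earlier results of these data known. Shares over all genes beside their counts therefore give a scale and are no test of the list. Each member is measured by 1 probe set that carries 1 gene symbol in the platform annotation. All 9 were bright enough to be tested, among 14705 genes in all. Cr2 exceeded the brightness limit of the test (the 40th percentile within an array) on 18 of 31 arrays, and the others on 29 to 31.

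The lungs came from male mice of the inbred strains AKR and C57 BL/6 (C57 from here on), with an age label of 6 weeks. They were exposed to cigarette smoke or to room air. Most were then instilled through the trachea with lipopolysaccharide (LPS, a cell wall component of Gram-negative bacteria that sets off inflammation) or with its saline vehicle. In AKR the groups were smoke then LPS (2 arrays), air then LPS (3), smoke then saline (3), air then saline (3), and room air alone titled 3 weeks (2) or 6 weeks (3). In C57 they were smoke then LPS, air then LPS, smoke then saline, air then saline, and room air alone titled 6 weeks, with 3 arrays each. The titles give instilled mice 3 weeks of exposure, but the series description gives them 6 weeks and gives 3 weeks to the rest, which leaves the duration in each group uncertain. None of the 31 arrays is labelled as smoke without instillation. The titles call the arrays biological replicates, and so few per group allow only coarse precision.

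B cells recognise antigen through a membrane antibody that pairs with the signalling chains CD79A and CD79B. Coreceptors such as CD22 and CD21 raise or dampen that signal, and PAX5 keeps the identity of the lineage. In the lungs of healthy mice B cells are found mostly in the blood within the vessels, and during inflammation they can enter the tissue or gather around airways. In whole lung, a change in the number or share of B cells and a change in a transcript per B cell cannot be told apart. Nor can transcript of B cells and of other cells that carry the same gene. These limits hold for every value below.

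Values are log2 intensities, so a difference of 1 is a doubling. They are compared between arrays for the same gene only. A gene is said to have risen or fallen where its adjusted p (limma, Benjamini-Hochberg over the 14705 genes, two-sided) was under 0.05, and errors after ± are standard errors unless SD is written. The spread is estimated over all 31 arrays.

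The tissue label was borne out by lung genes: Sftpc, which encodes a surfactant protein, lay between 12.99 and 13.83 on all arrays, and Scgb1a1, of club cells, between 13.1 and 13.8. The arrays formed 2 sets by the shape of their distributions, and a label on separate normalization is not given in the sources used here. AKR room air at 6 weeks and every C57 array make up the larger set (18 arrays), and the remaining 13 AKR arrays the smaller one. A pair of arrays went against its labels. Saa3, a gene that inflammation induces, was at 6.06 on the array labelled C57 smoke LPS 3, where the other C57 LPS arrays lay at 12.4 to 12.9. It was at 12.5 on the array labelled C57 smoke saline 3. Saa3 was also raised on AKR air saline array 3 (8.95, against 6.22 and 6.38 on arrays 1 and 2) and was 8.09 to 8.65 on the AKR smoke saline arrays, below the 12.2 to 12.7 of AKR LPS arrays. Without AKR air saline array 3 the Fcer2a difference of LPS against saline in AKR was 2.70, against 2.53 with it. Results that use either array of the C57 pair are given with and without both. Since all arrays share 1 estimate of the spread, leaving both out also narrowed the errors of the other comparisons.

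Stretches upstream of 2 members are shown because they hold the matches, in the 250 bases before a gene's start, to motifs of B cell and cytokine-activated factors. Sequences are RefSeq's, build GRCm38.p6, and 6 of the 9 members (Cd79a, Cd22, Cr2, Fcer2a, Bank1 and Pax5) were matched, with 8 windows in all. The capitals mark the match.
Cd22 (chr7:30879029-30879278, minus strand): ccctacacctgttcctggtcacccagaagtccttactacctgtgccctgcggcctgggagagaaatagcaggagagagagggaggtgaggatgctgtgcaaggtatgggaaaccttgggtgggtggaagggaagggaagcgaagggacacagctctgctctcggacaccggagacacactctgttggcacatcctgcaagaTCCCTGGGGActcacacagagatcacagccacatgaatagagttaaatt
Fcer2a (chr8:3690862-3691111, minus strand): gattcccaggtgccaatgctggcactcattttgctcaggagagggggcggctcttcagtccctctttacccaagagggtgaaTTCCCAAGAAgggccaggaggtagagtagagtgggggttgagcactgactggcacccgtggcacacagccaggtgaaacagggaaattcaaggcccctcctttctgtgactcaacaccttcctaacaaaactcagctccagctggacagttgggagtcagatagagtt
The Cd22 match is to TCCC and GGGA with any 2 bases between them, the core of sites of EBF1 (a factor of the B lineage), 49 to 40 bases before the start. That motif lies in 0.779% of the 32851 such windows in RefSeq's table. The Fcer2a match, in 1 of the gene's 3 windows, is to TTC and GAA with any 4 bases between them, a spacing bound by STAT6 (the factor activated by interleukin-4), 168 to 159 bases before the start. It lies in 5.854% of windows. Both strands were searched, and the motifs do not overlap there. The octamer ATGCAAAT, an NF-kB motif (GGGA and TTCC with any 2 bases between) and the PU.1 motif GAGGAAGT were not found in the 8 windows, against shares of 1.601%, 1.208% and 2.441% of all windows. A match is a run of letters and was not tested for binding.

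**Figure D1:**
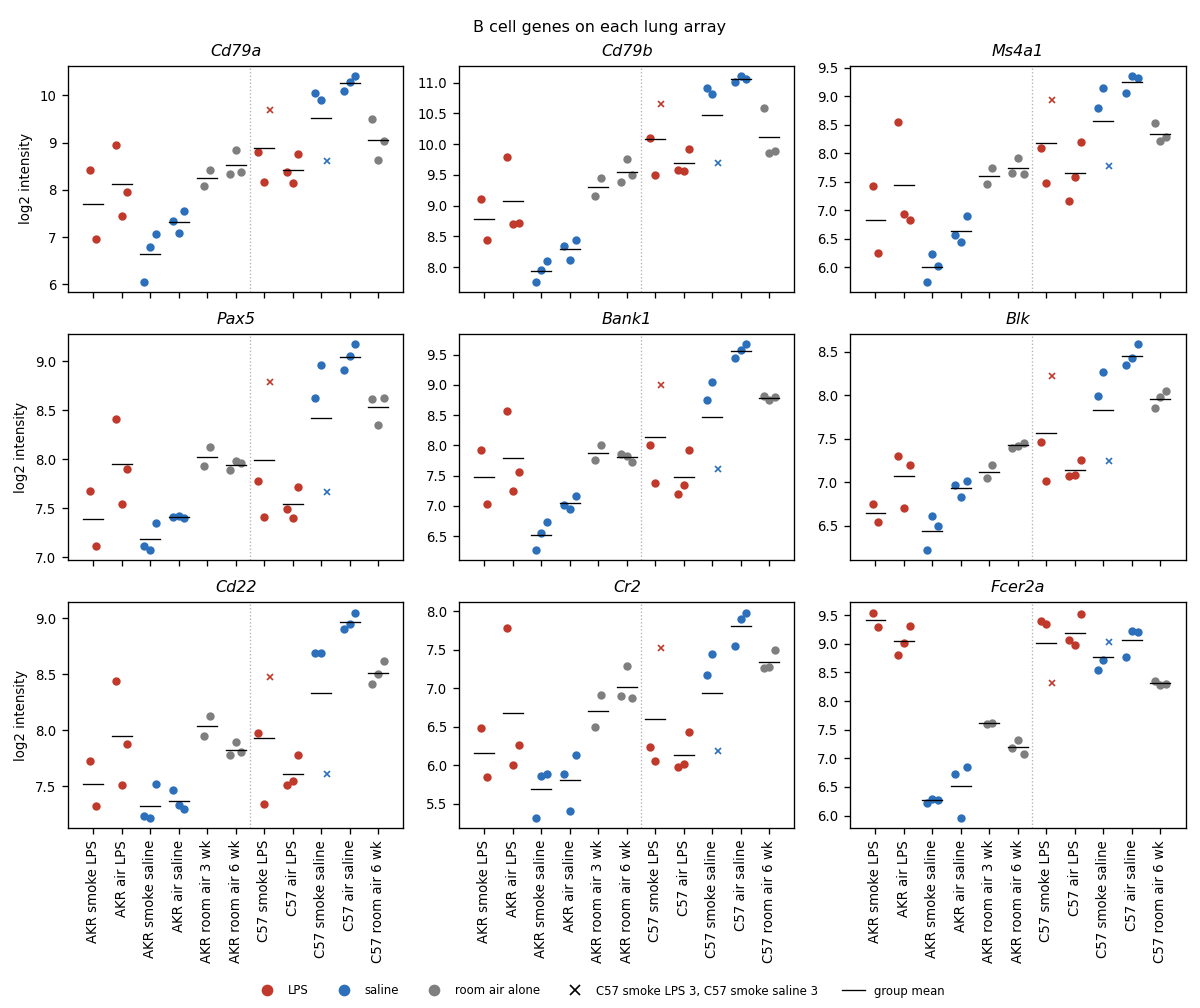
Log2 intensity (y axis) of each of the 9 genes on every array (points), by group (x axis), with a line at the group mean and crosses for the pair of C57 arrays that went against its labels. In C57 all genes but Fcer2a are lower on LPS points after air than on saline points, and Fcer2a in AKR after air stands at 8.81 or higher on every LPS array and at 6.85 or lower on every saline array.

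The first question was how the 9 genes differ between LPS and saline lungs of C57 mice that had breathed air. In C57 8 of the 9 fell, by 1.31 to 2.08 on the log2 scale (2.49-fold to 4.24-fold lower), and Fcer2a did not pass the test. Of all genes tested, 4.30% fell and 15.7% changed in either direction. The median difference of the 9 was -1.51, against -0.01 over all genes tested.

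Cd79a and Cd79b encode the signalling chains of the B cell receptor. Cd79a (probe set 10551025) had 8.38, 8.14 and 8.76 on the C57 LPS arrays, against 10.10, 10.28 and 10.41 on the saline arrays. It was 3.57-fold lower with LPS (log2 difference -1.84 ± 0.42, adjusted p = 0.0073). Every LPS array lay well below every saline array. Cd79b (10392142) had 9.58, 9.56 and 9.93 with LPS, against 11.01, 11.11 and 11.05 with saline, a difference of -1.37 ± 0.31 (adjusted p = 0.0068).

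Among surface molecules, Ms4a1 (10466172) encodes CD20, a membrane protein of mature B cells. It had 7.16, 7.59 and 8.19 on the C57 LPS arrays, against 9.06, 9.35 and 9.32 on the saline arrays, and fell by 1.60 (adjusted p = 0.0115). The LPS arrays were more spread than the saline arrays, and the highest of them was still under the lowest saline array. Cd22 (10562132), an inhibitory coreceptor that binds sialic acid, had 7.51, 7.55 and 7.78 with LPS, against 8.90, 8.95 and 9.05 with saline. The groups are tight and far apart, and Cd22 fell by 1.35 (adjusted p = 0.0035). Cr2 (10361292), which encodes the complement receptors CD21 and CD35 in mice, had 5.98, 6.01 and 6.43 with LPS, against 7.55, 7.90 and 7.98 with saline. It fell by 1.67 (adjusted p = 0.0074), and the LPS arrays 1 and 2 lay under the 40th percentile of their arrays, where a difference is read less exactly.

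The cytoplasmic and nuclear members moved the same way. Bank1 (10502335), a scaffold protein of receptor signalling, had 7.20, 7.34 and 7.92 on the C57 LPS arrays, against 9.45, 9.58 and 9.67 on the saline arrays. At 4.24-fold lower (-2.08 ± 0.35, adjusted p = 0.0029) it showed the largest difference of the 9. Blk (10420758), a Src-family kinase, had 7.08, 7.08 and 7.25 with LPS, against 8.35, 8.43 and 8.58 with saline, and fell by 1.31 (adjusted p = 0.0029). Pax5 (10512669), the transcription factor that holds B cell identity, had 7.50, 7.40 and 7.72 with LPS, against 8.92, 9.06 and 9.17 with saline, and fell by 1.51 (adjusted p = 0.0035). For all 8 genes that fell, no LPS array reached a saline array, which holds for 17.1% of all genes in the lower direction.

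Fcer2a (10576757) encodes CD23, the low-affinity receptor for immunoglobulin E on mature B cells. It had 9.07, 8.98 and 9.53 on the C57 LPS arrays, against 8.76, 9.22 and 9.21 on the saline arrays. The groups overlap, and the difference was 0.13 ± 0.23 (adjusted p = 0.74). Without the pair of doubted arrays, which are in neither group, the same 8 genes fell, when 7.67% of all genes did.

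Set against C57 room air alone, LPS after air gave smaller differences for the 8 genes other than Fcer2a and a larger one for Fcer2a. In C57 5 of the 9 fell (Bank1, Cr2, Pax5, Cd22 and Blk) and Fcer2a rose, while 7.75% of all genes fell and 15.1% rose. The median of the 9 was -0.82, against -0.02 over all genes. Room air alone in C57 is titled 6 weeks and the instilled groups 3 weeks, so exposure time and instillation cannot be told apart here.

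Bank1 had 8.83, 8.75 and 8.80 on the C57 room air arrays, above all LPS arrays given earlier, and was 2.47-fold lower with LPS (-1.31 ± 0.35, adjusted p = 0.0125). Cr2 had 7.26, 7.28 and 7.50 in room air and was lower with LPS by a difference of -1.21 ± 0.38 (adjusted p = 0.028). Pax5 (-0.99 ± 0.28), Cd22 (-0.90 ± 0.25) and Blk (-0.82 ± 0.22) had adjusted p values of 0.0129 to 0.0150. These 5 genes and Ms4a1 had every LPS array below every room air array, as had 15.6% of all genes.

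Both chains of the receptor and Ms4a1 did not pass. Cd79a averaged 8.43 ± 0.31 in C57 LPS lungs and 9.05 ± 0.43 in room air (SD, n = 3 each), with the LPS array 3 above the room air array 2. Its difference was -0.63 ± 0.42 (adjusted p = 0.28). The differences of Cd79b (-0.43 ± 0.31, adjusted p = 0.32) and Ms4a1 (-0.69 ± 0.40, adjusted p = 0.21) were of the same sign. Fcer2a had 8.35, 8.29 and 8.31 in room air, below every LPS array, and was 1.83-fold higher with LPS (0.88 ± 0.23, adjusted p = 0.0112). Without C57 room air array 3 the count that passed was 3 instead of 6. The share over all genes in that fit is not given, so the count shows only how the calls depend on this array.

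**Figure D2:**
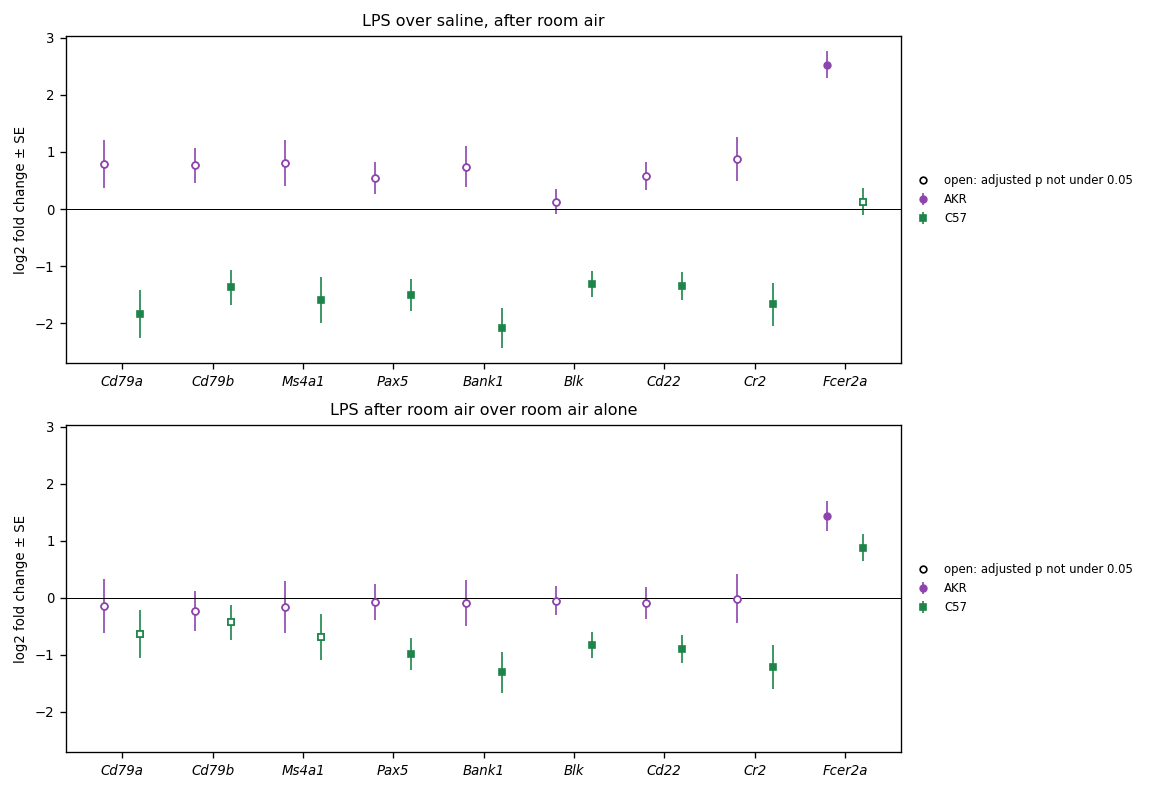
Log2 fold change ± standard error (y axis) of each gene for LPS after air over saline after air (top) and over room air alone (bottom), with AKR as circles and C57 as squares. Open symbols did not pass the test; against saline, 8 C57 genes lie between -1.31 and -2.08 and the AKR genes other than Fcer2a between 0.13 and 0.87.

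The saline lungs themselves stood above room air in C57. All 9 genes were higher on every C57 saline array than on every room air array, by 0.46 to 1.21 with a median of 0.75, against -0.01 over all genes. None passed the adjusted test, in which 0.0136% of all genes changed, and 6 had an unadjusted p under 0.05, as had 907 of the 14705 genes. Groups without overlap in that direction were seen for 7.94% of all genes. Cd79a had the largest difference, with 10.10, 10.28 and 10.41 on the saline arrays against 9.49, 8.63 and 9.04 on the room air arrays (1.21 ± 0.42, adjusted p = 0.56). With only the compared arrays in the fit, 2 of the 9 and 32 of all genes passed.

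In AKR lungs after air, LPS against saline gave another picture. Fcer2a rose and was the 1 gene of 9 that passed, while 9.45% of all genes rose and 7.41% fell. The other 8 had differences of 0.13 to 0.87, and the median of the 9 was 0.77, against -0.04 over all genes.

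Fcer2a had 8.81, 9.01 and 9.30 on the AKR LPS arrays, against 6.73, 5.96 and 6.85 on the saline arrays. It was 5.77-fold higher with LPS (2.53 ± 0.23, adjusted p = 5.1e-07). Saline array 2 lay under the 40th percentile of its array, at 6.23, so the size of the fold is less exact than its direction. The lowest LPS array lay far above the highest saline array, the widest such gap among the 9 genes in this comparison.

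For the other 8 genes LPS array 1 was the highest of its group. Ms4a1 had 8.55, 6.93 and 6.83 on the AKR LPS arrays, against 6.57, 6.44 and 6.89 on the saline arrays. Arrays 2 and 3 lay at the upper edge of saline. Cr2 had 7.78, 6.01 and 6.27 with LPS, against 5.89, 5.41 and 6.13 with saline. All of these Cr2 saline arrays and LPS array 2 lay under the 40th percentile of their arrays, where a difference is read less exactly. Bank1 had 8.57, 7.24 and 7.56 with LPS, against 7.02, 6.96 and 7.17 with saline. Blk had 7.30, 6.71 and 7.20 with LPS, against 6.96, 6.83 and 7.02 with saline, where array 2 was the one apart. Without array 1 the median of the 9 was 0.33. Without the pair of doubted C57 arrays, 6 of the 9 rose, when 11.8% of all genes did.

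T cell genes moved with this result. In AKR 6 of the 7 tested T cell markers rose with LPS against saline (median 0.77), and their mean level, each gene centred on its own mean, was -0.34 to 0.51 with LPS, against -0.77 to -0.53 with saline. LPS array 1 was again the highest. In C57 none of the 7 passed (median -0.02), with levels of 0.25 to 0.55 with LPS, against 0.37 to 0.50 with saline. Their part in the results on the 9 genes was not tested.

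Against AKR room air alone titled 3 weeks, Fcer2a rose again and the other 8 did not pass. Fcer2a had 7.60 and 7.61 on the 2 room air arrays, below every LPS array, and was 2.70-fold higher with LPS (1.43 ± 0.26, adjusted p = 0.0024), while 5.54% of all genes rose. The other 8 had differences of -0.23 to -0.02, with standard errors of 0.25 to 0.47. The sign changed for all of these but Cd79b when a single array was left out. The median of the 9 was -0.09 with all arrays and ranged from -0.48 to 0.13 with each array left out in turn. The comparison shares its LPS arrays with that against saline.

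AKR saline lungs were on the low side of room air, where C57 saline lungs were on the high side. The room air groups are titled 3 weeks in AKR and 6 weeks in C57, so strain and titled exposure cannot be told apart in this contrast or in the interactions against room air. All 9 genes had every saline array below both room air arrays, with differences of -1.10 to -0.18 and a median of -0.89, against -0.04 over all genes. Such a gap was common in this comparison, at 27.2% of all genes. Fcer2a alone fell (-1.10 ± 0.26, adjusted p = 0.049), against 0.558% of all genes, and this call was lost when any array of either group was left out. Ms4a1 had 6.57, 6.44 and 6.89 on the saline arrays, against 7.46 and 7.73 in room air (-0.96 ± 0.45, adjusted p = 0.26). With the replicate block Fcer2a did not pass, so that the count was 0.

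In this comparison too T cell genes moved along: 2 of 7 fell in AKR saline lungs, when 0.558% of all genes fell. Their median was -0.64, with levels of -0.77 to -0.53, against -0.03 to 0.06 in room air. In C57 saline lungs none of the 7 passed (median 0.35). The shift in AKR saline lungs was not limited to lymphocyte genes. Endothelial markers were lower there too (median -0.63 over 3 genes) and heart muscle genes higher (median 1.34 over 4 genes), without any passing. What part any of these has in the B cell values was not tested.

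The strains were then compared by the difference between their LPS differences. Against saline, all 9 genes had a higher LPS difference in AKR than in C57, by 1.45 (Blk) to 2.83 (Bank1), and all 9 passed. In the same test 0.802% of all genes passed in that direction, and the median over all genes was -0.04, against 2.40 over the 9. Bank1 differed by 0.74 in AKR and -2.08 in C57 (interaction 2.83 ± 0.50, adjusted p = 0.0043). Fcer2a differed by 2.53 in AKR and 0.13 in C57 (interaction 2.40 ± 0.33, adjusted p = 0.0004). Each strain's difference lies within 1 set of arrays. With each array left out in turn, 4 to 9 of the 9 passed, the 4 being without AKR air LPS array 1. Shares over all genes are not given for these fits, so the counts show only how the calls depend on single arrays.

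Against room air alone the picture was different, since none of the 9 passed the same test. The interactions were 0.20 (Cd79b) to 1.22 (Bank1), and 4 had an unadjusted p under 0.05, as had 2844 of the 14705 genes, while 0.741% of all genes passed. Without the pair of doubted arrays 2 passed, both higher in AKR, as did 0.299% of all genes. The interaction of strain with saline against room air ran the other way, at -2.14 (Cd79a) to -0.68 (Blk). Cd79b (-1.94 ± 0.46, adjusted p = 0.036) and Fcer2a (-1.85 ± 0.35, adjusted p = 0.0113) passed, as did 1.17% of all genes in that direction. These interactions share the LPS, saline or room air arrays with each other. The count of 2 became 7 without the pair of doubted arrays, when 3.23% of all genes passed, and 0 without AKR room air array 2.

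In room air alone at 6 weeks, where both strains lie in the same set of arrays, AKR lungs were lower in Fcer2a. It had 7.17, 7.32 and 7.07 on the AKR arrays, against 8.35, 8.29 and 8.31 on the C57 arrays, a difference of -1.12 ± 0.23 (adjusted p = 0.0060). No AKR array came near a C57 array. The other 8 differed by -0.99 (Bank1) to -0.33 (Cr2) without passing, and 1.39% of all genes fell. With the doubted pair left out, which is in neither group, Bank1, Blk and Cd22 fell too (adjusted p = 0.031, 0.026 and 0.024). Over all genes, 1723 had an unadjusted p under 0.05 with all arrays and 2044 without the pair. Of the 9, these were 5 and 6. The 1.39% is from the fit with all arrays. In 7 of the 9 every AKR array lay below every C57 array, as in 9.86% of all genes. The median of the 9 was -0.59, against 0.01 over all genes.

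Fcer2a thus stood apart from the other 8 on most LPS arrays. Its difference of saline against room air had the same sign as theirs in each strain, at 0.75 in C57 and -1.10 in AKR. With each gene centred on its mean over all arrays, Fcer2a minus the mean of the other 8 was 1.59 and 2.10 in AKR smoke LPS lungs and 0.08, 1.485 and 1.502 in AKR air LPS lungs. In C57 it was 1.26, 1.13 and 1.27 in air LPS lungs, and 1.08 and 1.54 on the first pair of smoke LPS arrays. On all saline and room air arrays of both strains other than the array labelled C57 smoke saline 3 it was between -1.25 and -0.38. In the doubted pair the offset was -0.85 under the label C57 smoke LPS 3 and 0.97 under C57 smoke saline 3. These offsets were formed after the members' values were seen and carry no test.

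**Figure D3:**
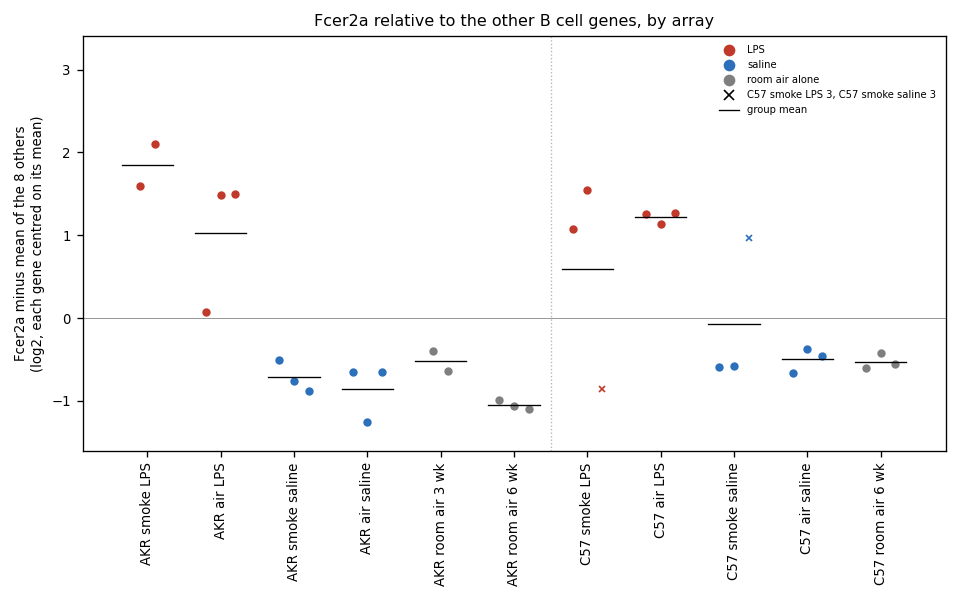
Fcer2a minus the mean of the other 8 genes (y axis, log2, each gene centred on its mean) on every array (points), by group (x axis), with lines at group means and crosses for the doubted pair. LPS arrays other than C57 smoke LPS 3 lie at 0.08 or higher, and saline and room air arrays other than C57 smoke saline 3 at -0.38 or lower.

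The other 8 genes varied together. Over the 15 C57 arrays their pairwise Pearson correlations were 0.838 to 0.988 (median 0.948), and over the 13 AKR arrays of the smaller set 0.745 to 0.983 (median 0.920). Fcer2a correlated with them at -0.467 to -0.199 in C57 and at 0.321 to 0.635 in AKR. Over the 13 C57 arrays left without the doubted pair, the 8 genes correlated at 0.820 to 0.990, and Fcer2a with them at -0.428 to -0.135. These arrays share the treatments, so the values only describe how the levels went together. By the lower of both correlations with the mean of the 9, the genes most like them were Fcrl1 (0.963), Ikzf3 (0.938), Fcmr (0.933), Cxcr5 (0.918), Bcl11a (0.912) and Ptprcap (0.900), and these 6 also came first without the pair.

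After smoke, LPS against saline in C57 rests on the doubted pair. With all arrays none of the 9 passed, none had an unadjusted p under 0.05, and 0 of all genes passed, although 1300 had an unadjusted p under 0.05. Without both arrays 8 of the 9 fell and Fcer2a rose, while 9.79% of all genes fell and 10.9% rose. Cd79a then had 8.80 and 8.17 with LPS, against 10.04 and 9.90 with saline (-1.48 ± 0.43, adjusted p = 0.0163). Fcer2a had 9.40 and 9.35 with LPS, against 8.54 and 8.72 with saline (0.75 ± 0.22, adjusted p = 0.0186). In the doubted pair Cd79a was 9.68 under the label C57 smoke LPS 3 and 8.61 under C57 smoke saline 3.

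After smoke in AKR, Fcer2a rose 8.92-fold with LPS (3.16 ± 0.26, adjusted p = 4.6e-08), while 16.9% of all genes rose. It had 9.55 and 9.30 on the LPS arrays, against 6.23, 6.29 and 6.28 on the saline arrays. These saline values lie just above their arrays' 40th percentiles of 6.20, 6.21 and 6.28, and here too the size of the fold is less exact than its direction. The other 8 had differences of 0.20 to 1.05 and did not pass. LPS array 1 was above array 2 for each of them, as with Cd79a at 8.42 and 6.96, against 6.06, 6.78 and 7.07 with saline. Without the doubted C57 pair, 4 of the 9 rose, when 18.6% of all genes did.

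Smoke against air gave no gene of the 9 that passed, in either strain or instillation. In saline lungs of AKR the differences were -0.69 (Cd79a) to -0.04 (Cd22) with a median of -0.36, against 0.01 over all genes, and 6 of the 9 had every smoke array below every air array, as had 5.33% of all genes. Blk had 6.22, 6.61 and 6.50 on the AKR smoke arrays, against 6.96, 6.83 and 7.02 on the air arrays, the lowest unadjusted p of the 9 (-0.49 ± 0.22, adjusted p = 0.74). In this comparison 0.0340% of all genes passed.

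In saline lungs of C57 the median of the 9 was -0.64 with all arrays and -0.29 without the doubted pair. Bank1 had 8.75, 9.04 and 7.61 on the C57 smoke arrays, against 9.45, 9.58 and 9.67 on the air arrays (-1.10 ± 0.35, adjusted p = 0.72). The lowest of these is the doubted array, and without the pair the difference was -0.67 ± 0.29 (adjusted p = 1). None of all genes passed with or without the pair, while 906 had an unadjusted p under 0.05 with it.

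In LPS lungs smoke and air groups overlapped for all 9 genes in both strains. The median was -0.42 in AKR, where 0.00680% of all genes passed. In C57 it was 0.45 with all arrays and 0.10 without the pair, and 0 genes passed, with 217 at an unadjusted p under 0.05 over all arrays.

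**Figure D4:**
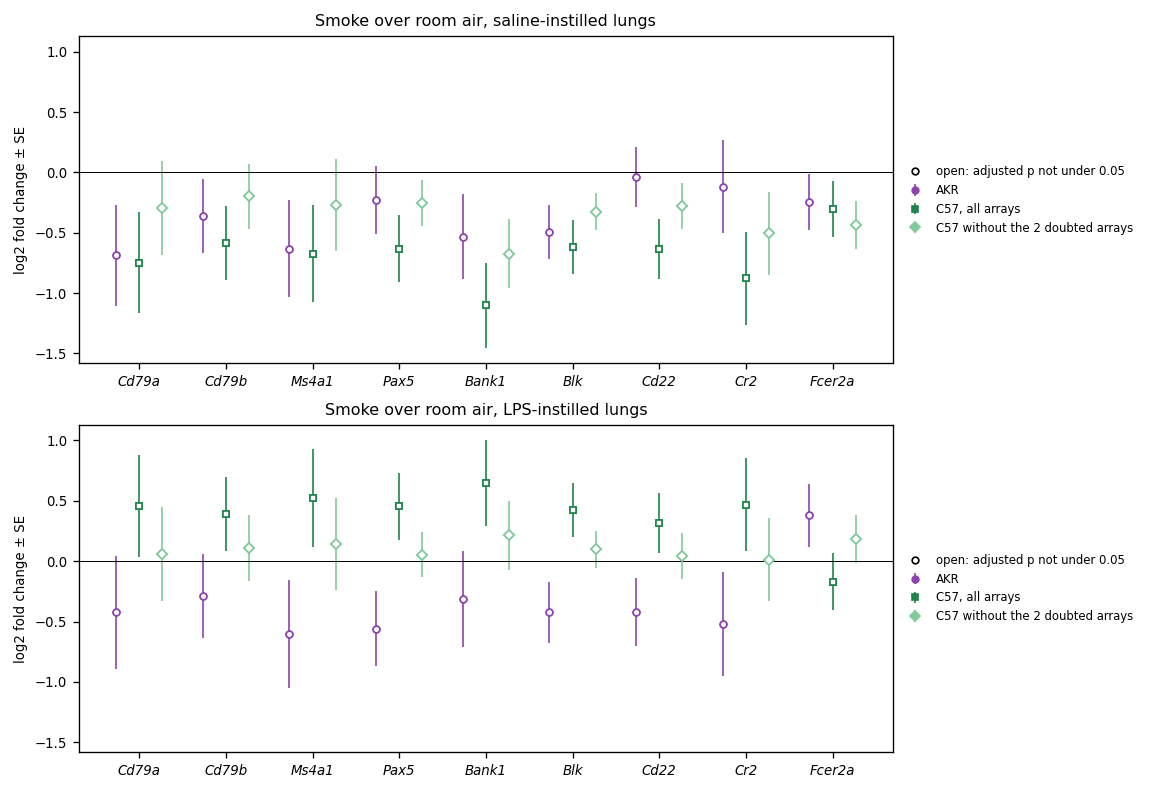
Log2 fold change ± standard error (y axis) of each gene for smoke over room air in saline lungs (top) and LPS lungs (bottom), with AKR as circles, C57 with all arrays as squares and C57 without the doubted pair as diamonds. All symbols are open because none passed; the C57 values lie nearer 0 without the pair for every gene but Fcer2a.

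Other genes of the lineage were counted in lists. Of 21 surface and lineage genes, 19 were tested. With LPS against saline after air, 13 fell and 1 rose in C57 (median -0.89), and 9 rose and none fell in AKR (median 0.59). Over all genes 4.30% fell and 11.5% rose in C57, and 9.45% rose and 7.41% fell in AKR, shares that also apply to the lists that follow. H2-Ob, a class II molecule that modulates peptide loading, fell in C57 (8.26 ± 0.20 with LPS and 10.27 ± 0.15 with saline, SD, n = 3 each), and in AKR its difference was 0.23 ± 0.35 (adjusted p = 0.71). Fcmr, the receptor for immunoglobulin M, fell by 1.61 in C57, and so did Cxcr5, which guides B cells to follicles, by 1.31. Both did not pass in AKR, at 0.59 and 0.95.

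Some genes of that list did not follow the 9. Fcgr2b, the inhibitory immunoglobulin G receptor that myeloid cells also carry, rose by 1.90 in C57 and by 1.81 in AKR. Cd72, a coreceptor, rose by 2.14 in AKR and differed by 0.01 in C57, and Cd180, a Toll-like receptor relative, rose by 1.43 in AKR and differed by -0.07 in C57. Against room air alone, 4 of the 19 fell and 2 rose in C57 (7.75% and 15.1% of all genes), and 3 rose in AKR (5.54% of all genes). Of the 19, 12 passed the interaction of strain with LPS against saline, all higher in AKR, as did 0.802% of all genes.

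Of 17 B cell receptor signalling genes, most of which other blood cells also use, 15 were tested. In C57 5 rose and 1 fell with LPS against saline, and in AKR 12 rose and 1 fell. Malt1, a protease of NF-kB signalling, rose by 1.36 in C57 and 2.42 in AKR, and Vav1, an exchange factor, by 1.38 and 2.14. Pik3ap1, an adaptor of PI3 kinase, rose by 0.99 in C57 and 1.76 in AKR. Ptpn6, a phosphatase, rose by 1.32 in AKR, as did Plcg2, a phospholipase, by 1.07 and Prkcb, a protein kinase C, by 1.05. In C57 these 3 did not pass, at 0.60, 0.24 and -0.33. The gene that fell in C57 was Blnk, the B cell linker adaptor, by 0.84, and the one that fell in AKR was Cd81, a tetraspanin, by 0.38 (both named after their values were seen). Neutrophil markers moved beside them: 7 of 7 rose in AKR (median 3.20, levels of 1.498 to 2.087 with LPS, against -1.73 to -1.24 with saline). In C57 none of 7 passed against saline with all arrays (median 1.45, levels of 1.24 to 1.59 with LPS, against -0.50 to 0.50 with saline). Against C57 room air alone, 7 of 7 neutrophil markers rose with LPS (median 2.35), while 15.1% of all genes rose. Their part was not tested.

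Antibody and plasma cell genes mostly did not pass. Of 13, 10 were tested, and in C57 Igha, the heavy chain of immunoglobulin A, fell by 1.73 and Irf4 by 0.62, while Xbp1, the secretory factor that epithelium also uses, rose by 0.63. In AKR Prdm1 rose by 0.88 and Xbp1 by 0.52. Jchain, which joins antibody units, differed by -1.06 in C57 and -0.60 in AKR, and Mzb1, a chaperone of antibody secretion, by -0.60 and -0.02, without passing.

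Of 7 factors that attract B cells or keep them alive, 4 were tested, and 3 rose with LPS against saline in C57 and 2 in AKR. Cxcl13, the ligand of Cxcr5, averaged 11.09 ± 0.17 in C57 LPS lungs and 8.49 ± 0.29 in saline lungs (SD, n = 3 each), a rise of 2.60 ± 0.65 (adjusted p = 0.0113). In AKR it averaged 11.15 ± 0.47 with LPS and 9.07 ± 1.02 with saline (SD, n = 3 each), a rise of 2.08 ± 0.65 (adjusted p = 0.031). Ccl19 rose by 1.86 in C57 and by 1.82 in AKR, and Tnfsf13b, the survival factor BAFF, rose by 0.54 in C57 and differed by 0.23 in AKR without passing. Cxcl12 did not pass in either strain, at 0.03 in C57 and 0.11 in AKR.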

How the data were processed

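Whole-lung RNA of 31 mice was measured on arrays, as biotinylated cRNA per the labels' protocols. The authors deposited log2 intensities per probe set, made with RMA per the submitters' processing notes, whose version is not given in the sources used here. Of 35556 probe sets, 21789 have 1 gene symbol in the platform annotation, 1621 have several and 12146 have none here. The probe set with the highest mean stood for each gene. Genes above their array's 40th percentile on at least 3 arrays were kept (14705 of 19938). A model with a mean for each of 11 groups was fitted with limma 3.58.1 in R 4.3.3 (statmod 1.5.0 for the block), tables and figures used Python 3.11.15, pandas 2.3.3, numpy 2.4.6 and matplotlib 3.10.9, and the fit was tested on simulated data. The 9 members and the gene lists were chosen with earlier results of these data known. Up to 6 tested genes of each list were named, those with the largest LPS difference against saline in either strain (Blnk and Cd81 were added after their values were seen), and genes most like the 9 by the lower of their correlations in each strain. Alternatives were no filter, quantile normalization, median centring, only the compared arrays, a replicate block, an intensity trend, the mean over probe sets, AKR room air at 6 weeks, leaving out the doubted pair and leaving out each array. Deviations from group means of same-numbered arrays correlated at -0.77 to 0.55, and above 0.1 in 17 of 35 pairs, so the numbers were not taken to pair arrays.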

Additional observations from a re-analysis of the deposited data

Results flagged for a closer look

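All 9 genes differed between the strains in their LPS difference against saline, by the interaction test (AKR minus C57, limma, adjusted over all genes). In that direction 0.802% of all genes passed. Fewer of the 9 passed without AKR air LPS array 1, as given above. The interactions were 2.63 ± 0.60 for Cd79a (adjusted p = 0.026), 2.14 ± 0.44 for Cd79b (adjusted p = 0.012) and 2.40 ± 0.57 for Ms4a1 (adjusted p = 0.035). They were 2.55 ± 0.54 for Cr2 (adjusted p = 0.017), 1.93 ± 0.35 for Cd22 (adjusted p = 0.0054) and 2.05 ± 0.39 for Pax5 (adjusted p = 0.0081). For Cr2 every AKR saline array lay under the 40th percentile of its array, so the size of its interaction is less exact. Blk had 1.45 ± 0.32 (adjusted p = 0.022), Bank1 had 2.83 ± 0.50 and Fcer2a had 2.40 ± 0.33. For Fcer2a the rise was in AKR. The other 8 fell in C57, and in AKR they differed by 0.13 to 0.87 without passing. With the doubted pair left out, which is in neither AKR group, 6 of the 9 rose in AKR, when 11.8% of all genes did. None of the 9 passed the interaction of strain with LPS against room air alone with all arrays, when 0.741% of all genes did. For saline against room air alone, the strains differed in Cd79b (-1.94) and Fcer2a (-1.85), when 1.17% of all genes passed in that direction.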

How the results depend on the processing

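The replicate block changed the count of the 9 genes that passed in 1 comparison, AKR saline against room air, where it gave 0. That count of 1 was also 0 with no filter, with median centring, with only the compared arrays and without any 1 array (0 to 0), and 5 with AKR room air at 6 weeks. AKR room air at 6 weeks lies in the other array set. The count over all genes in this comparison moved widely under the alternatives too, as given at the end, so the 5 is no result about the 9 genes alone. Without the doubted pair, 6 passed for LPS against saline after air in AKR, 9 after smoke in C57 and 4 after smoke in AKR, where median centring and only the compared arrays each gave 3. It also gave 2 for strain by LPS against room air (2 with AKR at 6 weeks), 7 for strain by saline (7 with AKR at 6 weeks, 9 with only the compared arrays) and 4 for AKR against C57 in room air (6 with only the compared arrays). Of all genes, 0.299% passed the first of these upward and 3.23% the second downward without the pair. The 4 and the counts in these parentheses come without a share over all genes and show only how the calls depend on the fit. With only the compared arrays 2 passed for C57 saline against room air. Leaving out 1 array gave 3 to 6 for LPS against room air in C57, 0 to 1 after smoke in C57, 1 to 2 after smoke in AKR, 4 to 9 for strain by LPS against saline and 0 to 3 for strain by saline (most often 1, against 2 with all arrays). These counts too are given without shares over all genes.

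Signs that changed with 1 array left out belonged to differences that had not passed. The range was -0.041 to 0.23 for Fcer2a with LPS against saline in C57. For LPS against room air in AKR it was -0.56 to 0.19 (Cd79a), -0.72 to 0.14 (Ms4a1), -0.48 to 0.18 (Bank1), -0.30 to 0.13 (Pax5), -0.17 to 0.13 (Blk), -0.57 to 0.32 (Cr2) and -0.34 to 0.12 (Cd22). After smoke, LPS against saline ranged from -0.77 to 0.042 (Bank1) and -0.60 to 0.0026 (Blk) in C57, and from -0.063 to 0.49 (Pax5) and -0.0021 to 0.40 (Cd22) in AKR. Smoke against air in AKR ranged with saline from -0.14 to 0.012 (Cd22) and -0.32 to 0.067 (Cr2), and with LPS from -1.16 to 0.31 (Cd79a), -0.62 to 0.073 (Cd79b), -0.76 to 0.13 (Bank1) and -0.86 to 0.029 (Cr2). With LPS in C57 it ranged from -0.36 to 0.18 for Fcer2a, which was 0.18 without the pair. Strain by LPS against room air ranged from -0.17 to 0.38 (Cd79b) and -0.023 to 0.84 (Ms4a1). With AKR room air at 6 weeks, Pax5 (0.011) and Cd22 (0.12) in AKR and Cd79b (-0.055) in the interaction changed sign.

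Over all genes, only the compared arrays gave 1485 instead of 2479 for LPS against saline in AKR and 1359 instead of 2325 against room air, which was 6520 with AKR at 6 weeks, a group of the other array set. AKR saline against room air had 101, and 0 to 4308 under the alternatives. The interactions had 167 (402 without the pair), 109 (14 to 2553) and 218 (144 to 1969). The cause was not tested. Signal near background limits Cr2 most.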
